A study of Saccharomyces cerevisiae with 12 samples.

Results

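The 30 genes described here encode the budding yeast enzymes and partner proteins that build the glycosylphosphatidylinositol (GPI) anchor, attach it to proteins and remodel it afterwards. They were chosen by gene name from knowledge of the pathway, and all 30 were found among the 6347 features of the deposited table, each by its own name. No level entered the list, but the pathway was proposed after the mRNA difference between the strains was known, that of MCD4 in particular, so every difference between strains below is a description and no p-value is given for it. All 30 genes passed the filter on low values, a mean of at least 1 RPKM (reads scaled by gene length and library total) over the libraries.

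The strain called OPT carried the plasmid pRS316 with a codon-optimized form of cdt-1, a gene for a cellodextrin transporter of *Neurospora crassa*, and the strain called NC carried the same plasmid with cdt-1 in its endogenous codons. Both were made from the engineered *Saccharomyces cerevisiae* strain D452-2, and no strain without the transgene was analysed here. Both forms of cdt-1 are described as tagged with GFP at the C-terminus. The cells were harvested in mid-exponential growth, and 3 mRNA libraries of each strain, called biological replicates in the design text, are used here. The 6 libraries of ribosome footprints in the series were not analysed here, so every value is an mRNA level.

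A GPI anchor is a glycolipid made step by step on phosphatidylinositol in the membrane of the endoplasmic reticulum (ER). N-acetylglucosamine is added and deacetylated on the cytosolic side, the inositol is acylated, and mannoses and ethanolamine phosphates are then added on the lumenal side before a transamidase swaps the C-terminal signal of a protein for the finished anchor. In yeast the anchored proteins are sorted to the plasma membrane or cross-linked into the cell wall, and most steps of the pathway are essential for growth.

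The library totals and the transgene set the frame for these values. Each library added up to 999285 to 999421 RPKM, so the values behave as shares of a total. Reads in protein-coding genes, estimated from the step between low values, came to 41800000, 32700000 and 33200000 in OPT and 30300000, 23200000 and 25600000 in NC, which puts between 188 and 11357 reads behind each value of a pathway gene. For cdt-1 with optimized codons the table gives 420, 557 and 530 RPKM in OPT and lists 0 in NC, and for cdt-1 with endogenous codons it lists 0 in OPT and gives 518, 506 and 567 RPKM in NC. These levels moved with the strains as the labels say, but the sources used here do not say how reads from sequence shared by both rows were handled.

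As a group the pathway genes were expressed at ordinary levels. Their mean levels ran from 16.1 to 73.7 RPKM in OPT with a median of 42.3 RPKM, and from 17.3 to 133 RPKM in NC with a median of 50.4 RPKM, against medians over all protein-coding genes of 47.4 RPKM in OPT and 49.9 RPKM in NC. Of the 30 genes, 13 lay above the protein-coding median in OPT and 15 in NC. Summed over the pathway, mRNA came to 1309 ± 43.0 RPKM in OPT and 1614 ± 58.2 RPKM in NC (SD, n = 3 each). Without MCD4 the sums were 1253 ± 40.2 RPKM in OPT and 1481 ± 42.4 RPKM in NC, and in both cases the 3 OPT libraries lay below the 3 NC libraries.

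**Figure D1:**
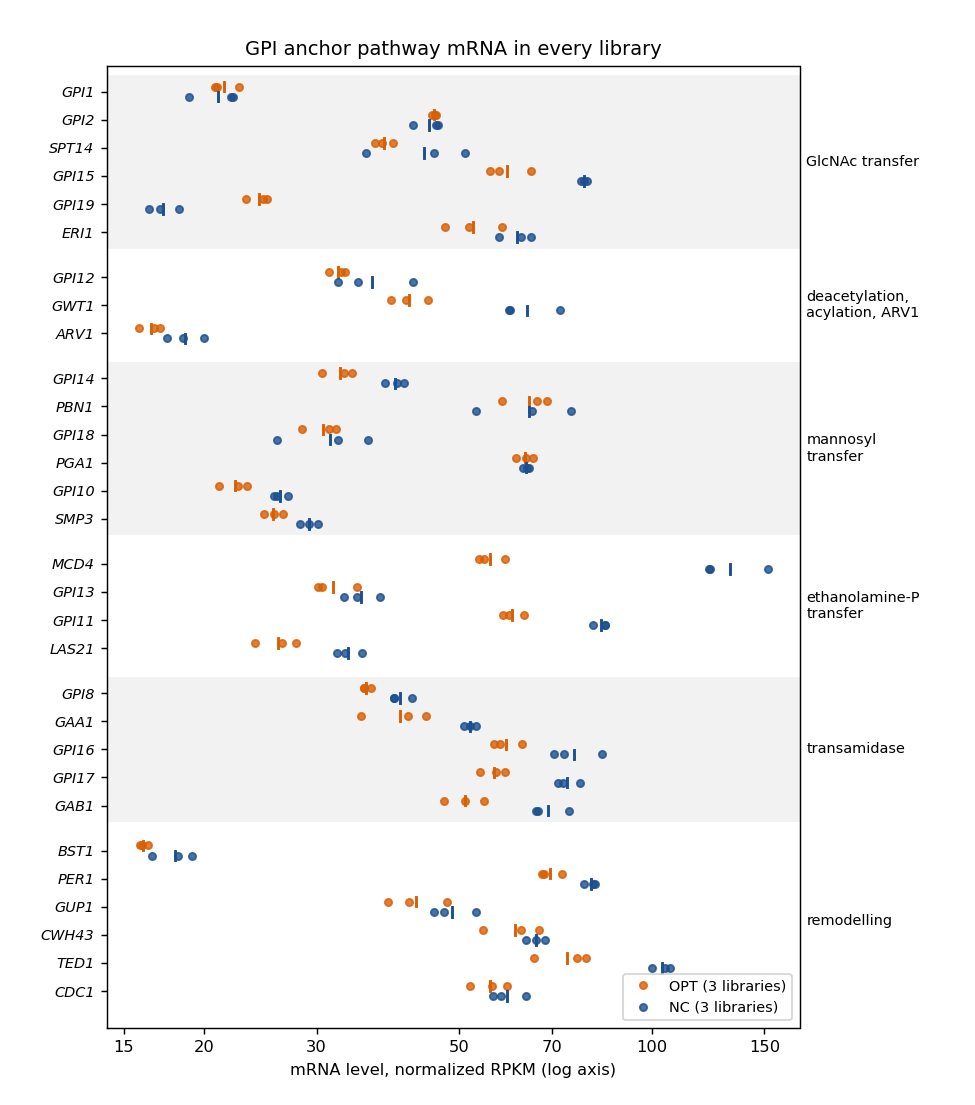
Normalized RPKM of the 30 pathway genes (log axis) in each of 3 OPT libraries (orange, upper row of each gene) and 3 NC libraries (blue, lower row), grouped by pathway step; vertical ticks are means. MCD4 shows the widest gap, at 53.8 to 59.0 RPKM in OPT against 123 to 152 RPKM in NC, and GPI19 is the gene whose OPT values all lie above its NC values.

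Differences between strains were taken as OPT minus NC on the log2(RPKM + 1) scale, which understates the change of low genes, from a limma fit across all features, and a gene was called where its Benjamini-Hochberg adjusted p over all features was under 0.05. Of the 30 pathway genes 12 were called lower in OPT, 1 was called higher and 17 were not called. Over all 5982 yeast features tested, 13.8% were called lower in OPT, 5.38% higher and 19.1% in either direction. The median difference of the 30 genes was -0.19 beside -0.06 over all features. Of the 30 differences 26 were negative, beside 3690 of 5982 over all features. The OPT values lay wholly below the NC values in 17 genes and wholly above them in 1, where over all features the shares were 27.6% below and 13.1% above, or 40.7% together. Because the pathway was proposed with this contrast in view, nothing is read from these shares. In RNA from whole cultures, less of an mRNA in each cell and fewer cells that make it cannot be told apart.

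The calls of 5 genes, MCD4, GWT1, TED1 and GPI11 among those that fell and GPI19 as the one that rose, were kept in all 13 other settings that were run. Each of the other 8 calls ended in at least 1 setting. The count of genes called lower was 5 without OPT replicate 1 and 4 without OPT replicate 2, and it was 8 with the library medians set equal. Over all features the count called lower fell in the same settings, from 823 to 332, 227 and 491 in that order.

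**Figure D2:**
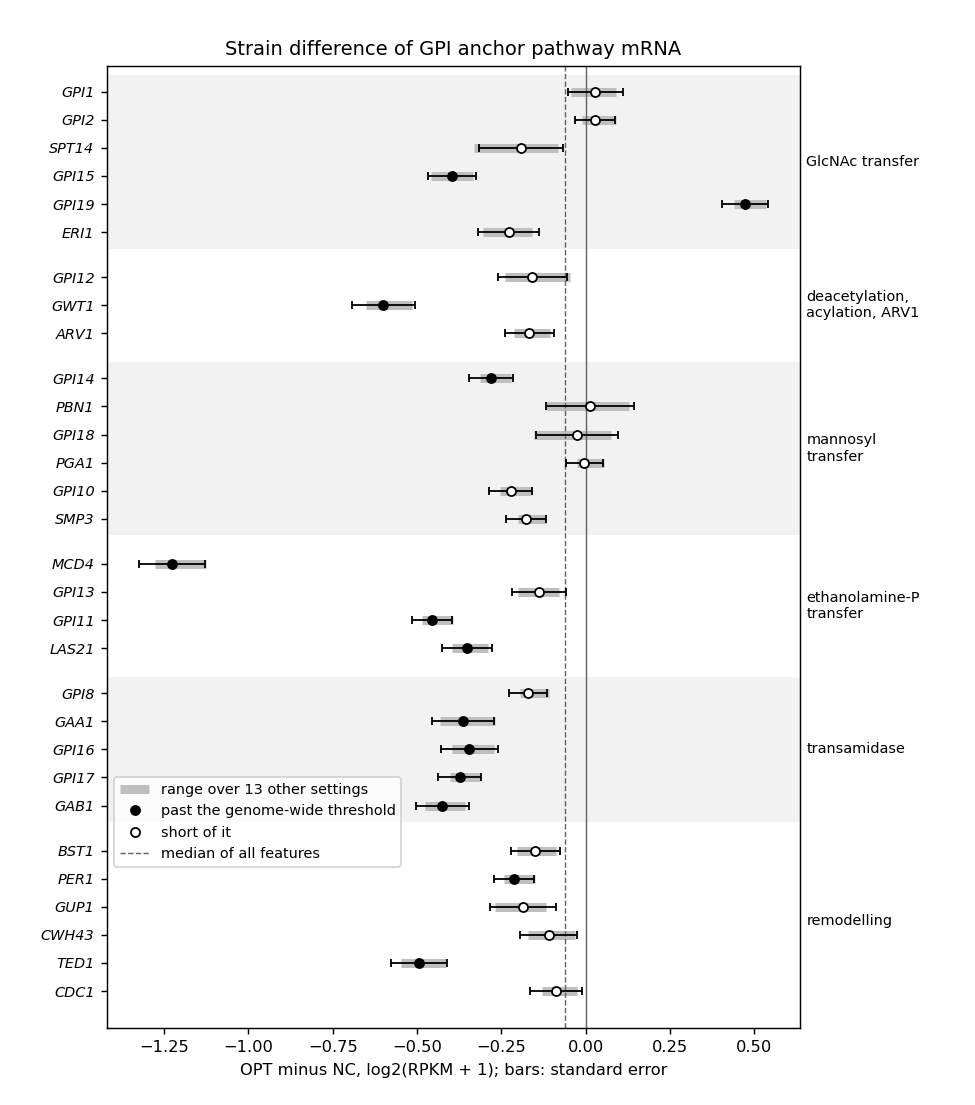
Difference between strains, OPT minus NC on the log2(RPKM + 1) scale, of the 30 pathway genes with its standard error from the fit across all features; filled points are past the genome-wide threshold and grey bars give the range over 13 other settings. MCD4 lies at -1.23, GPI19 at 0.47, and the other 28 genes lie between -0.60 and 0.03.

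The first step, transfer of N-acetylglucosamine to phosphatidylinositol, is carried out by a complex in which SPT14 is the catalytic subunit. Of its 6 subunits 1 fell, 1 rose and 4 were not called, beside 19.1% of all features called in either direction. GPI19, a small subunit (chromosome IV, 1337352 to 1337774 in build R64), stood at 25.1, 24.7 and 23.3 RPKM in OPT, against 16.4, 18.3 and 17.1 RPKM in NC. All 3 OPT values lay above the highest NC value, and GPI19 rose by 0.47 on the log2 scale (standard error 0.07). It was the lowest of the 30 pathway genes in NC, with a mean of 17.3 RPKM, and it ranked 26 of 30 in OPT with a mean of 24.3 RPKM.

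GPI15, another subunit of this complex (chromosome XIV, 557020 to 557783), went the opposite way. It stood at 64.8, 57.8 and 55.9 RPKM in OPT, against 78.3, 79.4 and 77.5 RPKM in NC, without overlap, a difference of -0.40 (standard error 0.07). Its call ended without OPT replicate 2 (-0.38) and without OPT replicate 3 (-0.35). The ratio of GPI19 to GPI15 within a library is unchanged by a factor that multiplies all values of that library. That ratio was 0.387, 0.428 and 0.416 in OPT and 0.210, 0.230 and 0.221 in NC, restating the opposite differences of the genes.

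The other subunits of the complex stayed short of the threshold. SPT14 stood at 39.5, 38.0 and 37.0 RPKM in OPT, against 45.7, 51.1 and 35.9 RPKM in NC, where NC replicate 3 lay below all OPT libraries. Its difference was -0.19, and it became a call without NC replicate 3 (-0.33) and with libraries weighted by arrayWeights (-0.31). GPI2 and GPI1, subunits with several membrane spans, had means of 45.8 ± 0.417 and 21.5 ± 1.04 RPKM in OPT and of 44.9 ± 2.22 and 21.1 ± 1.85 RPKM in NC (SD, n = 3), with differences of 0.03 each. ERI1, a short subunit that also binds the small GTPase Ras2, had 52.6 ± 5.46 RPKM in OPT and 61.7 ± 3.60 RPKM in NC, a difference of -0.23 with a standard error of 0.09.

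Next in the pathway stand the deacetylase GPI12, the inositol acyltransferase GWT1, and ARV1, an ER membrane protein proposed to help deliver GPI intermediates to the lumenal steps. GWT1 (chromosome X, 261080 to 262552) stood at 39.1, 41.3 and 44.9 RPKM in OPT, against 60.0, 60.0 and 71.9 RPKM in NC. The groups did not overlap and NC replicate 3 was the highest. GWT1 fell to 65.3% of its NC mean, a difference of -0.60 with a standard error of 0.09, and it was called in every setting, with differences between -0.65 and -0.51. GPI12 had 32.4 ± 0.968 RPKM in OPT and 36.6 ± 5.28 RPKM in NC, and ARV1 had 16.5 ± 0.635 RPKM in OPT and 18.7 ± 1.27 RPKM in NC (SD, n = 3). Neither was called, although the 3 ARV1 values of OPT all lay below those of NC.

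Mannoses are added by GPI14, GPI18, GPI10 and SMP3 in that order, with PBN1 as the partner of GPI14 and PGA1 as the partner of GPI18. Of these 6 genes 1 was called, as lower, beside 13.8% of all features. GPI14 (chromosome X, 460382 to 461593) stood at 30.6, 33.1 and 34.1 RPKM in OPT, against 40.1, 41.0 and 38.3 RPKM in NC, a difference of -0.28 (standard error 0.06). Its values did not overlap, but the call ended without NC replicate 1 (-0.28) or NC replicate 2 (-0.26) and without OPT replicate 1 (-0.24), 2 (-0.29) or 3 (-0.31).

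The enzymes for the later mannoses came close to the threshold or lay near zero. GPI10, with 22.4 ± 1.13 RPKM in OPT and 26.3 ± 0.701 RPKM in NC, differed by -0.22. It was called without NC replicate 3 (-0.23) and with arrayWeights (-0.24). SMP3, with 25.7 ± 0.870 RPKM in OPT and 29.2 ± 0.930 RPKM in NC, differed by -0.18. Both had OPT values wholly below their NC values. GPI18 and PGA1, which work as a pair, had differences of -0.03 and -0.01, and PGA1 varied little, between 61.5 and 65.3 RPKM in OPT and between 63.0 and 64.2 RPKM in NC. PBN1 stood at 66.2, 58.4 and 68.6 RPKM in OPT, against 53.1, 65.0 and 74.9 RPKM in NC, so that the spread among NC libraries was wider than the difference of 0.01. Small differences of this kind had no fixed sign, and those of GPI1, GPI2, PBN1, GPI18 and PGA1 changed sign in at least 1 setting.

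Ethanolamine phosphate is added to the first mannose by MCD4, to the second by LAS21 and to the third by GPI13, which are homologous membrane enzymes, and GPI11 is a partner needed for the later additions. Of these 4 genes 3 fell, beside 13.8% of all features. MCD4 (chromosome XI, 137932 to 140691) stood at 53.8, 54.8 and 59.0 RPKM in OPT, against 123, 123 and 152 RPKM in NC. The OPT libraries lay close together and far below the lowest NC library, and NC replicate 3 stood above the other 2. MCD4 fell to 42.1% of its NC mean, a difference of -1.23 with a standard error of 0.10, and was the only one of the 30 genes whose difference passed 2-fold. Over all settings its difference lay between -1.28 and -1.13. In NC it was the most abundant mRNA of the pathway, at 133 ± 16.7 RPKM, above 78.5% of protein-coding genes, and in OPT it ranked 11 of 30, at 55.9 ± 2.77 RPKM, above 55.7% of them.

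The homologues of MCD4 differed less. LAS21 (chromosome X, 317284 to 319776) stood at 24.1, 26.5 and 27.8 RPKM in OPT, against 33.2, 32.2 and 35.3 RPKM in NC, a difference of -0.35 (standard error 0.07). Its call ended with the library medians set equal (-0.29), without OPT replicate 1 (-0.30) and without OPT replicate 2 (-0.36). GPI13 stood at 30.6, 30.2 and 34.7 RPKM in OPT, against 33.1, 34.6 and 37.7 RPKM in NC. Its groups overlapped, and its difference of -0.14 was not called. Within a library, MCD4 mRNA was 1.76 ± 0.0576 times that of GPI13 in OPT and 3.77 ± 0.245 times in NC, and 2.14 ± 0.0840 times that of LAS21 in OPT and 3.94 ± 0.317 times in NC (SD, n = 3). Neither ratio overlapped between the strains, which restates the larger fall of MCD4 given above.

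GPI11 (chromosome IV, 1067731 to 1068390) stood at 63.3, 58.6 and 59.9 RPKM in OPT, against 84.6, 81.0 and 84.6 RPKM in NC. The 3 libraries of each strain lay close together, with a gap between the strains. It fell to 72.7% of its NC mean, a difference of -0.45 with a standard error of 0.06, and it was called in every setting.

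**Figure D3:**
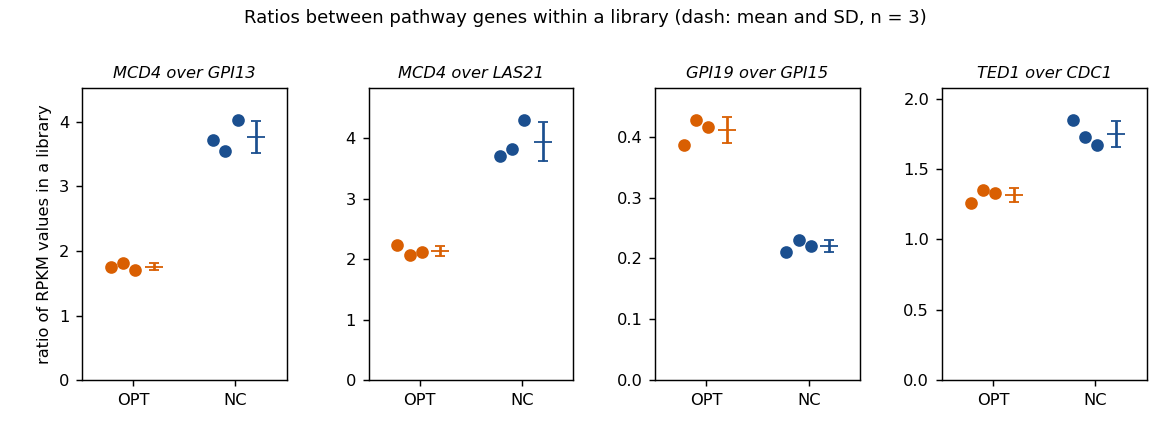
Ratios between 2 pathway genes within a library for 3 OPT (orange) and 3 NC (blue) libraries, with the mean and SD beside the points. Each axis starts at 0, and each ratio restates the differences of its genes. MCD4 over GPI13 lies at 1.70 to 1.82 in OPT and 3.55 to 4.03 in NC, GPI19 over GPI15 at 0.387 to 0.428 in OPT and 0.210 to 0.230 in NC, and TED1 over CDC1 at 1.26 to 1.35 in OPT and 1.67 to 1.85 in NC.

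The GPI transamidase is a complex of 5 subunits, with GPI8 as the protease-like catalytic one, and 4 of the 5 fell, beside 13.8% of all features. The 4 had differences between -0.42 and -0.35, and each of their calls ended in at least 2 settings. GAB1 (chromosome XII, 1057334 to 1058518) stood at 47.4, 51.2 and 54.8 RPKM in OPT, against 66.6, 66.0 and 74.2 RPKM in NC, a difference of -0.42 (standard error 0.08). GPI17 (chromosome IV, 1331237 to 1332841) stood at 54.0, 57.1 and 59.1 RPKM in OPT, against 71.3, 72.8 and 77.3 RPKM in NC, a difference of -0.37. Both lost their calls without OPT replicate 1 (-0.37 for GAB1 and -0.34 for GPI17) and without OPT replicate 2 (-0.43 for GAB1 and -0.38 for GPI17).

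The other accessory subunits gave less steady calls. GPI16 (chromosome VIII, 482005 to 483837), whose human counterpart is disulfide-linked to that of GPI8, stood at 56.8, 58.0 and 62.8 RPKM in OPT, against 70.3, 72.9 and 83.6 RPKM in NC, a difference of -0.35. GAA1 (chromosome XII, 316107 to 317951) stood at 35.2, 41.7 and 44.4 RPKM in OPT, against 52.0, 51.0 and 53.2 RPKM in NC, a difference of -0.36, with OPT replicate 1 the lowest. In both genes the groups did not overlap. Both calls ended with the library medians set equal (-0.29 for GPI16 and -0.30 for GAA1), with quantile normalization (-0.29 and -0.31), without NC replicate 2 (-0.37 and -0.38), without OPT replicate 1 (-0.32 and -0.27) and without OPT replicate 2 (-0.33 and -0.39). That of GPI16 also ended without OPT replicate 3 (-0.39), and that of GAA1 without NC replicate 1 (-0.36) and with no filter on low values (-0.36).

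The catalytic subunit GPI8 (chromosome IV, 1129588 to 1130823) was not called. It stood at 35.6, 35.6 and 36.5 RPKM in OPT, against 39.6, 42.3 and 39.6 RPKM in NC. These values did not overlap either, at a difference of -0.17 with a standard error of 0.06. They became a call without NC replicate 3 (-0.19) and with arrayWeights (-0.19). GPI8 had the lowest mean of the 5 subunits in both strains, 35.9 ± 0.502 RPKM in OPT and 40.5 ± 1.54 RPKM in NC (SD, n = 3). Per library it stood at 0.617 to 0.658 times the level of GPI17 in OPT and at 0.512 to 0.581 times in NC. These ratios restate the unlike differences of GPI8 and GPI17.

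After attachment the anchor is remodelled, and 2 of the 6 genes for this fell, beside 13.8% of all features. TED1 and CDC1 encode metallophosphoesterases that take ethanolamine phosphate off the second and the first mannose. TED1 (chromosome IX, 278426 to 279847) stood at 65.6, 76.4 and 79.1 RPKM in OPT, against 105, 100.3 and 107 RPKM in NC. OPT replicate 1 was the lowest library, and the groups did not overlap. TED1 fell to 70.9% of its NC mean, a difference of -0.49 with a standard error of 0.08, and it was called in every setting. It was the most abundant pathway mRNA in OPT, with 73.7 ± 7.15 RPKM, and stood second in NC after MCD4, with 104 ± 3.29 RPKM.

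CDC1, whose product acts where MCD4 has added its group, differed by -0.09 and was not called, with 52.0, 56.4 and 59.4 RPKM in OPT and 56.6, 58.1 and 63.8 RPKM in NC. TED1 mRNA was 1.32 ± 0.0492 times that of CDC1 in OPT and 1.75 ± 0.0916 times in NC, restating their unlike differences. The lipid part of the anchor is handled by BST1, PER1, GUP1 and CWH43. BST1 removes the acyl group from inositol, PER1 removes a fatty acid, GUP1 adds a longer one and CWH43 brings in a ceramide. PER1 (chromosome III, 206877 to 207950) stood at 68.0, 67.5 and 72.3 RPKM in OPT, against 78.4, 81.1 and 81.7 RPKM in NC. Its difference of -0.21 was called, whereas the -0.22 of GPI10 was not, and the call of PER1 ended in 8 of 13 settings, among them both scalings and each of the 5 libraries other than NC replicate 3, with differences between -0.24 and -0.15.

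The other lipid remodelling genes were not called. BST1, the lowest pathway mRNA in OPT, had 16.1 ± 0.248 RPKM in OPT and 18.0 ± 1.31 RPKM in NC, a difference of -0.15. It was called without NC replicate 3 (-0.20) and with arrayWeights (-0.20). GUP1 had 42.8 ± 4.71 RPKM in OPT and 48.8 ± 3.90 RPKM in NC, and CWH43 had 61.2 ± 6.08 RPKM in OPT and 65.9 ± 2.33 RPKM in NC (SD, n = 3). In GUP1 and CWH43 the highest OPT library lay within the range of NC.

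The libraries of a strain were not alike for these genes. OPT replicate 1 held the lowest of the OPT values in 20 of 30 pathway genes, shared with OPT replicate 2 in GPI8, beside 29.0% of all features. OPT replicate 3 held the highest in 20, beside 37.9% of all features. NC replicate 3 held the highest of the NC values in 17 of 30, beside 28.4% of all features, and shared it in GPI11; it held the lowest in 8, which were GPI1, SPT14, GPI15, GPI14, GPI18, PGA1, GPI8 and BST1, beside 49.9% of all features. In these shares a tied value counts for the library with the lower replicate number. The median pathway gene lay at -0.14, -0.12 and -0.06 in OPT and at 0.08, 0.13 and 0.16 in NC relative to its mean over the 6 libraries, so that the strains did not overlap. The spread within NC was wider than within OPT in 13 of 30 pathway genes, beside 77.1% of all features. The median SD on the log2 scale was 0.07 in OPT and 0.08 in NC for pathway genes, and 0.07 in OPT and 0.13 in NC over all features.

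**Figure D4:**
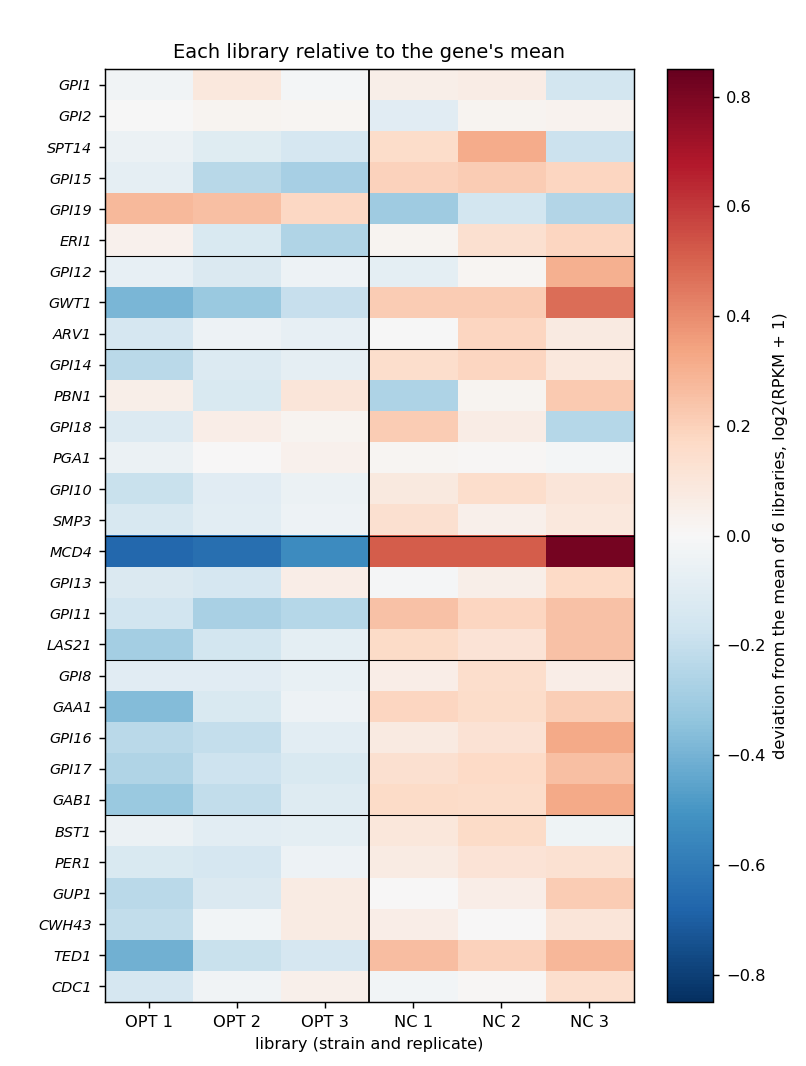
Deviation of each library from the gene's mean over 6 libraries on the log2(RPKM + 1) scale, with the 3 OPT libraries left of the 3 NC libraries and the 30 genes in pathway order (blue lower, red higher). MCD4 shows the strongest colours, GPI19 the reversed pattern, and NC 3 is the reddest column in 17 of 30 genes counted within NC.

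KAR2, HAC1 and URA3 lie outside the pathway and are given only as values beside it. KAR2, the ER Hsp70 chaperone, stood at 255, 274 and 302 RPKM in OPT, against 567, 560.0 and 1002 RPKM in NC. HAC1, the gene of the factor that switches on the unfolded protein response, stood at 271, 290.3 and 283 RPKM in OPT, against 410.4, 404 and 579 RPKM in NC. In both, as in MCD4 and GWT1, NC replicate 3 was the highest NC library, beside 28.4% of all features. URA3, the marker of the plasmid, stood at 590.0, 605 and 605 RPKM in OPT, against 935, 902 and 1160 RPKM in NC. Without NC replicate 3 the differences of MCD4 and GWT1 were -1.13 and -0.51, beside -1.23 and -0.60 with all 6 libraries. The count of pathway genes called lower was then 16 rather than 12, and over all features it was 1503 rather than 823. The part of ER stress and of the plasmid's copy number in the differences of pathway genes was not tested.

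The 30 genes lie on 14 of the nuclear chromosomes, and none was overlapped by another gene of the RefSeq annotation of R64. The gene that lies next upstream, at a gap of 150 to 1209 nucleotides, was tested for 28 of the 30, and 12 of these 28 pathway genes were called themselves. Of the 28 neighbours 2 were called, both lower, beside 19.1% of all features called in either direction. These were APQ12, upstream of TED1 on the same strand, at -0.35, and YJR012C, which diverges from GPI14 at a gap of 188 nucleotides, at -0.25. Where strands were read from the systematic names, 17 neighbours diverged from the pathway gene, and 1 of these 17 was called. Upstream of GPI19, the gene PPZ2 differed by 0.26 and was not called. MCD4 lies 326 nucleotides from a tRNA gene that was not tested.

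Genes that feed the pathway were set beside it. In a list of 11 enzymes that supply its sugar and phospholipid donors 8 fell and none rose, where over all features 13.8% were called lower and 5.38% higher. The median difference of the 11 was -0.37, beside -0.06 over all features. The lists of this kind were also chosen with the contrast known, and nothing is read from their shares. SEC53, the phosphomannomutase, had 472 ± 13.5 RPKM in OPT and 863 ± 121 RPKM in NC, a difference of -0.86, and PMI40, the mannose-6-phosphate isomerase, had 161 ± 5.78 RPKM in OPT and 259 ± 38.3 RPKM in NC, a difference of -0.68 (SD, n = 3). Both were called in every setting. DPM1 makes the dolichol phosphate mannose that all 4 GPI mannosyltransferases use. It had 195 ± 7.76 RPKM in OPT and 276 ± 41.6 RPKM in NC, a difference of -0.49. PSA1, which makes GDP-mannose, had 1267 ± 52.0 RPKM in OPT and 1697 ± 152 RPKM in NC, a difference of -0.42. The calls of DPM1 and PSA1 ended with the library medians set equal (-0.43 and -0.36) and without any 1 OPT library (-0.52 to -0.46 for DPM1 and -0.45 to -0.39 for PSA1). The count of 8 was 2 without OPT replicate 1 or 2, 4 without OPT replicate 3 and 5 with the library medians set equal. The 823 features called lower over the whole table became 332, 227 and 339 without OPT replicate 1, 2 or 3. They became 491 with the library medians set equal.

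Of 9 genes for leaving the ER, the p24 cargo receptors that collect GPI-anchored proteins and the COPII subunit gene LST1, listed as SFB3, 5 fell and none rose, beside 13.8% of all features called lower and 5.38% higher, with a median difference of -0.40 beside -0.06. ERP2 had 127 ± 2.30 RPKM in OPT and 232 ± 36.4 RPKM in NC, a difference of -0.86, and ERP1 had 283 ± 11.4 RPKM in OPT and 456 ± 55.1 RPKM in NC, a difference of -0.68. Both were called in every setting. EMP24 and ERV25, the other two subunits of the main p24 complex, differed by -0.47 and -0.43, and both calls ended with the library medians set equal (-0.41 and -0.37) and without any 1 OPT library (-0.52 to -0.43 and -0.47 to -0.37). That of ERV25 also ended with no filter on low values (-0.43) and without NC replicate 2 (-0.46). The count of 5 was 3 without any 1 OPT library and with the library medians set equal, settings in which the count over all features fell too, as given above.

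Among the genes for proteins that receive the anchor, 32 differences were negative and 14 positive, beside 3690 and 2292 over all features. The OPT values lay wholly below the NC values in 21 of these genes and wholly above them in 5, beside 27.6% and 13.1% of all features. Of 46 genes for GPI-anchored proteins of the plasma membrane and cell wall 10 fell, 1 rose and 35 were not called, with differences from -0.76 to 1.15 and a median of -0.24. The share called lower was 21.7%, against 13.8% of all features, and the share called in either direction was 23.9%, against 19.1%. UTR2, a cell wall transglycosylase, had 110 ± 13.4 RPKM in OPT and 186 ± 16.4 RPKM in NC, a difference of -0.76. TOS6, a cell wall protein gene, had 437 ± 37.6 RPKM in OPT and 676 ± 29.8 RPKM in NC, a difference of -0.63, and TIR2, of the seripauperin-related cell wall mannoproteins, had 24.3 ± 2.69 RPKM in OPT and 40.2 ± 4.82 RPKM in NC, a difference of -0.70. SPI1, a cell wall protein gene with a role in weak acid tolerance, rose, with 350 ± 20.7 RPKM in OPT and 164 ± 54.0 RPKM in NC, a difference of 1.15 (SD, n = 3). That call ended without any 1 OPT library, with differences of 1.11 to 1.19. The count of 10 was 4 without OPT replicate 1 or 2, where the count over all features fell from 823 to 332 and 227. Members such as FLO1, FLO5 and FLO9 share long stretches of sequence, so their separate values are uncertain.

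**Figure D5:**
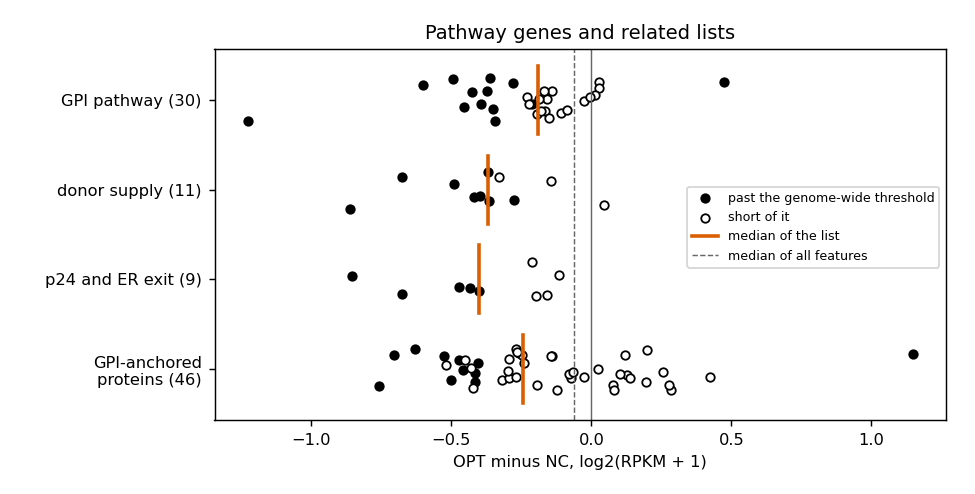
Difference between strains, OPT minus NC on the log2(RPKM + 1) scale, of the 30 pathway genes and of 3 related lists, with 1 point per gene, filled where past the genome-wide threshold; orange bars are list medians and the dashed line is the median of all features at -0.06. The medians are -0.19 for the pathway, -0.37 for donor supply, -0.40 for p24 and ER exit and -0.24 for GPI-anchored proteins.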

How the data were processed

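Total RNA of mid-exponential cultures was made into TruSeq RNA libraries, per the labels' protocols. The authors deposited normalized RPKM values in a single table, per the file headers, rounded to 2 decimals. Genome build R64, CASAVA 1.8.0, Bowtie and TopHat are named in the submitters' processing notes. Counting, the use of strand and multiply mapping reads are not described in the sources used here. Replicates were numbered in accession order, and columns were matched to samples by library name. Left out were 3 emptied lines and 1 repeated row of ZWF1.

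With limma 3.58.1 (R 4.3.3), the 6 libraries were compared on the log2(RPKM + 1) scale, OPT against NC, two-sided and without covariates, using eBayes with a trend and Benjamini-Hochberg adjustment. Features entered the fit if their mean reached 1 RPKM. Both cdt-1 rows were fitted but not counted. Reads behind a value were estimated from its RPKM, its RefSeq length and the step between low values: below about 20 reads, 97.9 to 100.0% of 47 to 78 values in each library fell within 0.15 of a whole read. The genes and lists, the tests and the rule for genes named from the related lists (up to 4 called genes by size) were chosen with earlier results of these data known. The planned search of promoters and comparison of proteins were not made, since no sequences were used here. The fit was tested on 10 simulated sets of 5984 features with independent noise, 1 spread per feature for both strains and 200 changed features. There it called 88.3% of features changed by 1 log2 unit and 58.5% of those changed by 0.5, and false calls made up 5.29% of the total. In the data the spread was wider in NC for 77.1% of features and 1145 were called, so these shares need not carry over. Each fit was repeated with the pseudocount at 0.1, without the filter, with a minimum of 10 RPKM, after quantile normalization, with equal library medians, with a common prior variance, with arrayWeights and without each library in turn. Tables and figures were made with Python 3.11.15, pandas 2.3.3, numpy 2.4.6 and matplotlib 3.10.9.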

Additional observations from a re-analysis of the deposited data

How the results depend on the processing

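Over 13 alternatives, the 30 pathway genes gave 390 differences, of which 333 kept both their direction and their side of the threshold, 35 lost a call, 8 gained one and 14 changed sign. The sign changes were all in differences that were never called. GPI1 changed sign with arrayWeights (-0.015) and lay between -0.043 and 0.067 when 1 library was left out. GPI18 changed sign with equal library medians (0.034) and lay between -0.15 and 0.075 without 1 library. PGA1 changed sign with quantile normalization (0.053) and with equal library medians (0.055) and lay between -0.025 and 0.017 without 1 library. Without 1 library GPI2 lay between -0.013 and 0.051 and PBN1 between -0.12 and 0.13. The median of the pathway lay between -0.23 and -0.13 in all settings.

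The count of pathway genes called lower was 4 to 16 when 1 library was left out (16 without NC replicate 3), and the count called higher stayed at 1. GPI-anchored protein genes called lower numbered 4 to 15 and called higher 0 or 1, p24 and ER-exit genes called lower 3 to 6, and donor-supply genes called lower 2 to 8. With equal library medians the p24 count was 3 and the donor-supply count 5. Over all features, 227 to 1503 were called lower and 134 to 450 higher when 1 library was left out, 491 lower and 471 higher with equal library medians, and 1262 lower and 426 higher with arrayWeights. The calls of all features were 71.9% lower with the deposited scaling, 58.9% with quantile normalization and 51.0% with equal medians. The cause of these shifts was not tested. No paired analysis was possible because the titles give no replicate numbers that the strains share. Before any of the 13 alternatives, the smallest called difference of a pathway gene was the -0.21 of PER1. Smaller ones were called in some alternatives, such as the -0.19 of GPI8 without NC replicate 3.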
